A study of Rattus norvegicus with 15 samples.

Results

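The genes described here are 8 transcription factors that establish and maintain hepatocyte identity, and albumin, the main secreted product of the hepatocyte. They were chosen by symbol: Hnf4a, Nr5a2, Prox1, Foxa1, Foxa2, Foxa3, Cebpa, Cebpb and Alb, which are 9 of the 19763 genes tested on the arrays. Primary hepatocytes of male Wister rats, bought cryopreserved, were pre-cultured for 24 h and then exposed for 24 h to 2,7-naphthalenediol, to 1,5-naphthalenediol, to 1-naphthol or to naphthalene, each at 30 µM, or to the vehicle DMSO. Naphthalene is a fused pair of benzene rings, 1-naphthol carries 1 hydroxyl group on it, and both diols carry a pair of hydroxyl groups, at different positions. The labels name 3 independent experiments per condition, and each group has 3 one-colour arrays, 15 in all. The labels state neither the age of the animals nor how many animals gave the cells.

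Hepatocyte identity rests on a network of factors that bind each other's genes and the genes of plasma proteins and metabolic enzymes. Hnf4a is a nuclear receptor at its centre. Foxa1, Foxa2 and Foxa3 are forkhead factors that open chromatin at liver enhancers. Cebpa and Cebpb are basic leucine zipper proteins that bind the same sites: Cebpa is high in quiescent, differentiated hepatocytes, and Cebpb is also induced in the acute phase response, in liver regeneration and by cAMP. Nr5a2 is a nuclear receptor of bile acid and cholesterol metabolism, and Prox1 is a homeobox protein that binds Hnf4a and Nr5a2. The albumin gene is a classic target of several of them, and its transcript falls when hepatocytes lose their identity in culture.

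The arrays were alike in quality. Between 57.4% and 61.0% of gene spots on an array were well above background, the 75th percentile of intensity lay between 1718 and 2074 units, and any 2 arrays of a group correlated at 0.996 or more over the probes kept. The 10 hepatocyte markers, Alb and Ttr among them, were well above background on all 15 arrays. Of the markers of other cells on the arrays, those well above background on all 15 arrays were 2 of 6 for bile ducts (Sox9 and Epcam), 4 of 10 for stellate cells (Acta2, Col1a2, Des and Reln), 3 of 10 for macrophages (Cd68, Cd14 and C1qb), 3 of 8 for endothelium (Cdh5, Vwf and Eng) and 1 of 8 for lymphocytes (Cd3d). Those well above background on 0 arrays were 3 for bile ducts (Krt19, Spp1 and Cftr), 3 for stellate cells (Lrat, Dcn and Lum), 7 for macrophages, Clec4f, Marco, Cd163 and Adgre1 among them, 3 for endothelium (Pecam1, Lyve1 and Tek) and 6 for lymphocytes, Ptprc and Cd3e among them. The arrays lie on 2 slides, and each slide was scanned separately. Slide 1 holds all arrays of 2,7-naphthalenediol and DMSO and 2 of 1,5-naphthalenediol. Slide 2 holds the third 1,5-naphthalenediol array and all arrays of 1-naphthol and naphthalene. A comparison of 1-naphthol or naphthalene with DMSO therefore crosses the slides, and only 1,5-naphthalenediol, with arrays on both, ties them together. For the 9 genes against DMSO, values with slide as a block follow where they end or add a call or turn a direction.

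All 15 probes of the 9 genes were well above background on all 15 arrays, and none was saturated. Hnf4a has 3 probes, Cebpa, Cebpb, Foxa1 and Alb have 2 each, and the others have 1. The brightest probe stands for the gene, and the others are described after it. Values below are log2 intensities minus the array's 75th percentile. They are comparable between arrays for 1 probe and say nothing about the level of 1 gene against another. Called means a Benjamini-Hochberg adjusted p below 0.05 in limma, over all 19763 genes. All 4 compounds were set against the same 3 DMSO arrays, so the 4 comparisons are not independent.

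Against DMSO the compounds changed few of the 9 genes, and those few by less than 1.5-fold. Cebpb rose with all 4 compounds and Cebpa with 1,5-naphthalenediol, 1-naphthol and naphthalene, while none of the 9 was called lower. With 2,7-naphthalenediol 1 of the 9 genes was called, against 11.1% of all genes tested (6.23% higher and 4.86% lower). The count was 2 of 9 with 1,5-naphthalenediol, against 22.2% of all genes (9.43% higher and 12.8% lower). It was 2 of 9 with 1-naphthol, against 20.9% (10.2% higher and 10.7% lower), and 2 of 9 with naphthalene, against 25.2% (12.5% higher and 12.7% lower). These shares are close to those over all genes, so the 9 genes were not called more often than the rest of the array. The median absolute log2 difference of the 9 was 0.09 with 2,7-naphthalenediol, 0.14 with 1,5-naphthalenediol, 0.14 with 1-naphthol and 0.05 with naphthalene, beside 0.11, 0.12, 0.12 and 0.13 over all genes.

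**Figure D1:**
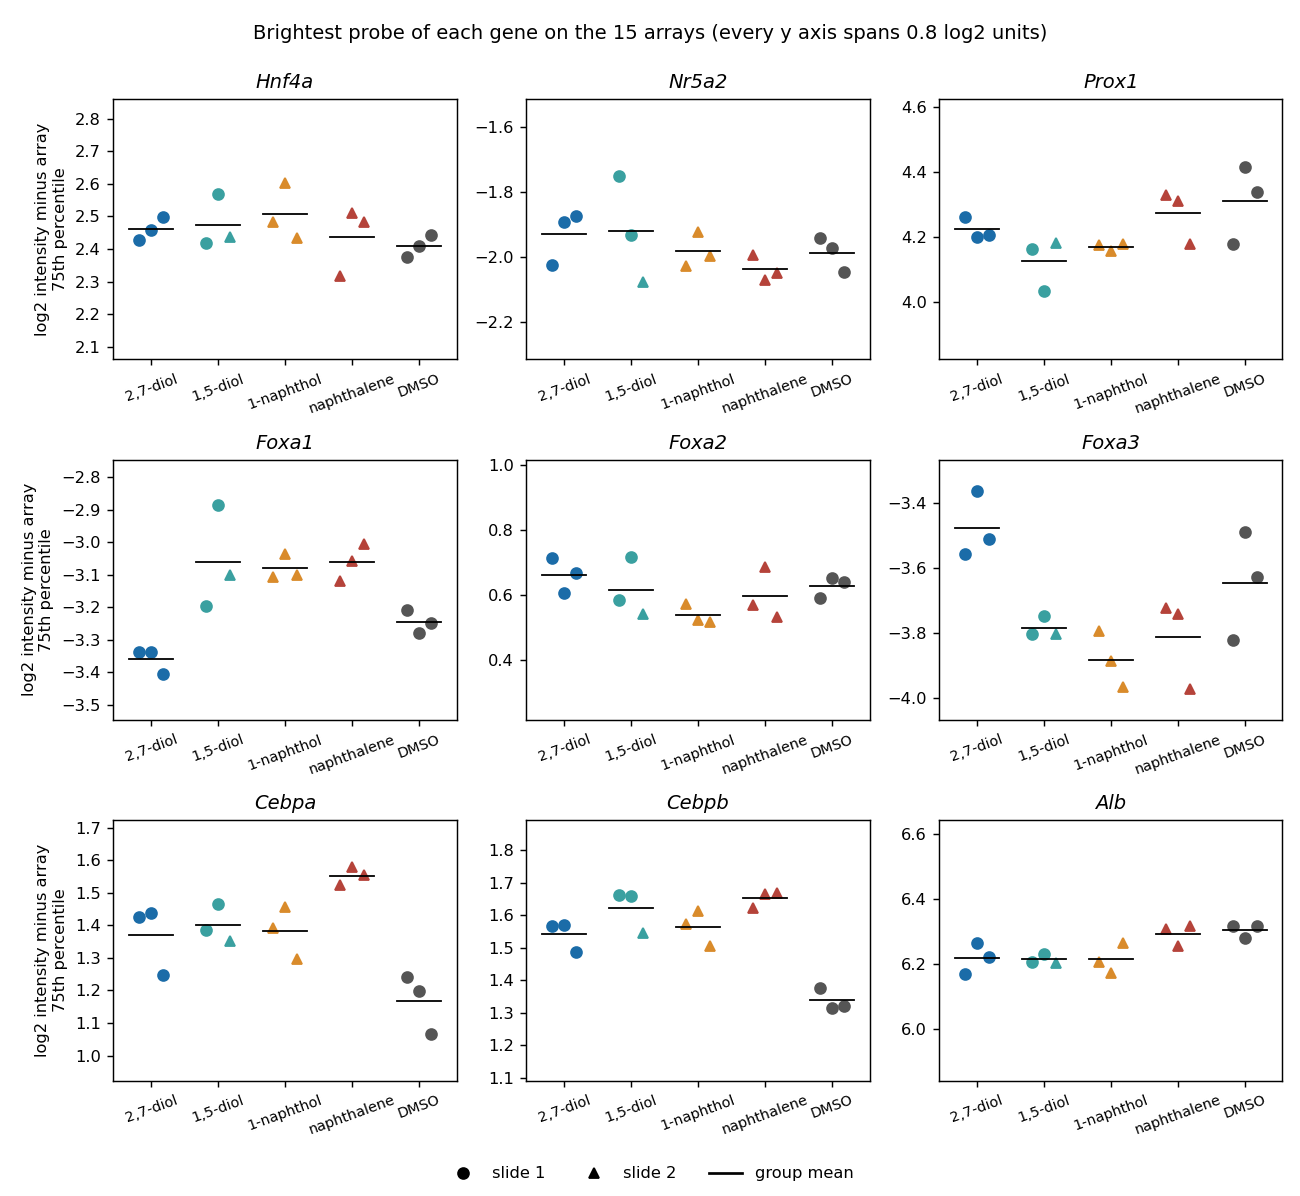
Log2 intensity minus the array's 75th percentile (y axis) of the brightest probe of each of the 9 genes on all arrays, by group (x axis, DMSO at the right). Points are single arrays, circles on slide 1 and triangles on slide 2, and bars are group means over 3 arrays. For Cebpa and Cebpb all exposed arrays lie above all DMSO arrays, and for Foxa1 the 2,7-naphthalenediol arrays lie lowest.

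Cebpb showed the widest spread of group means against its replicate error. Its brightest probe, which is printed 10 times on each array, read 1.57, 1.57 and 1.49 with 2,7-naphthalenediol and 1.66, 1.66 and 1.54 with 1,5-naphthalenediol. It read 1.57, 1.61 and 1.51 with 1-naphthol and 1.62, 1.66 and 1.67 with naphthalene, against 1.38, 1.32 and 1.32 with DMSO. Every exposed array lay above every DMSO array. Over all genes, groups of 3 arrays did not overlap for 38.5%, 38.2%, 47% and 41.4% of genes in these 4 comparisons, in the order just used. The log2 difference from DMSO was 0.20 ± 0.04 (SE; adjusted p = 0.0161 in limma, 3 arrays per group) with 2,7-naphthalenediol. It was 0.28 with 1,5-naphthalenediol (adjusted p = 0.000918 in limma), 0.23 with 1-naphthol (0.00623) and 0.31 with naphthalene (0.00186), each with the same SE. As folds these are 1.15, 1.22, 1.17 and 1.24. With slide as a block the differences were 0.20, 0.32, 0.34 and 0.43, all called, with limma adjusted p of 0.00922, 0.000632, 0.0448 and 0.0351. That fit called 15.1%, 22.2%, 1.17% and 0.946% of all genes. The first difference cannot move with the block, and the last 2 rest on 1,5-naphthalenediol array 3, which ties the slides. On slide 1 alone the calls with both diols held as well (adjusted p = 0.0306 and 0.00635 in limma).

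The call with 2,7-naphthalenediol was lost when DMSO array 2, DMSO array 3 or 2,7-naphthalenediol array 2 was left out (limma adjusted p up to 0.0663), and the other 3 calls held without any single array. With the array median as the scale it was 0.15 and not called (0.0904).

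The second Cebpb probe, which the files place on another transcript accession of the gene, did not follow the first in the fit without a slide block. It read -2.63, -2.57 and -2.70 with 2,7-naphthalenediol and -2.50, -2.60 and -2.89 with 1,5-naphthalenediol. It read -2.86, -2.82 and -2.94 with 1-naphthol and -2.96, -3.01 and -2.83 with naphthalene, against -2.76, -2.78 and -2.85 with DMSO. The 2,7-naphthalenediol arrays lay above the DMSO arrays here, and those of 1-naphthol and naphthalene overlapped with DMSO. The differences from DMSO were 0.16 with 2,7-naphthalenediol and 0.13 with 1,5-naphthalenediol, and -0.08 with 1-naphthol and -0.14 with naphthalene, and none was called. For naphthalene the 95% interval was -0.33 to 0.05 on this probe and 0.22 to 0.41 on the brightest. Without the block, the rise of Cebpb with 1-naphthol and naphthalene therefore rests on 1 of its 2 probes. With slide as a block the second probe was higher, by 0.16 with 2,7-naphthalenediol, 0.25 with 1,5-naphthalenediol, 0.27 with 1-naphthol and 0.20 with naphthalene. The last 2 values rest on 1,5-naphthalenediol array 3, at -2.89 on this probe against -2.50 and -2.60 on its other arrays. Only the difference with 1,5-naphthalenediol was called in that fit (adjusted p = 0.0757, 0.02, 0.2 and 0.306 in limma, in the same order). Averaged over both probes, Cebpb differed from DMSO by 0.07 with 1-naphthol and 0.09 with naphthalene (adjusted p = 0.418 and 0.327 in limma).

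Cebpa ran the same way on its brightest probe. It read 1.43, 1.44 and 1.25 with 2,7-naphthalenediol and 1.38, 1.47 and 1.35 with 1,5-naphthalenediol. It read 1.39, 1.46 and 1.30 with 1-naphthol and 1.52, 1.58 and 1.55 with naphthalene, against 1.24, 1.20 and 1.07 with DMSO. The naphthalene arrays were the highest of the 15 and DMSO array 3 the lowest. No exposed Cebpa group overlapped with DMSO, as with 38.5%, 38.2%, 47% and 41.4% of all genes, in the order just used. The log2 difference was 0.38 ± 0.06 with naphthalene (SE; adjusted p = 0.00305 in limma, 3 arrays per group), a fold of 1.31 with a 95% interval of 1.19 to 1.44. It was 0.23 with 1,5-naphthalenediol (adjusted p = 0.022 in limma) and 0.21 with 1-naphthol (0.0347), with the same SE. With 2,7-naphthalenediol it was 0.20 and was not called (0.0607). Of 20 alternatives, 15 left that difference uncalled and 5 called it. Among those 5 were quantile scaling (adjusted p = 0.0454 in limma), a replicate block (0.0272) and trend and robust moderation (0.0186). Adjustment over all genes and comparisons was another (0.0498).

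In the fit with slide as a block, the difference with 1,5-naphthalenediol was 0.26 and still called (adjusted p = 0.0269 in limma). The differences with 1-naphthol and naphthalene were 0.29 and 0.46 and were no longer called (0.21 and 0.0741), and in that fit the calls fell to 1.17% and 0.946% of all genes. On slide 1 alone, with 2 arrays of 1,5-naphthalenediol, the difference was 0.26 (0.0653). The naphthalene call held without any single array, the 1,5-naphthalenediol call was lost without DMSO array 3 or 1,5-naphthalenediol array 2 (up to 0.0916), and the 1-naphthol call without DMSO array 2 or 3 or 1-naphthol array 1 or 2 (up to 0.134). With the array median as the scale the differences with 1,5-naphthalenediol and 1-naphthol were 0.18 and 0.17 and were not called (0.0968 and 0.128). The second Cebpa probe differed from DMSO by 0.12 with 2,7-naphthalenediol, by 0.21 with 1,5-naphthalenediol, by 0.10 with 1-naphthol and by 0.16 with naphthalene. All 4 point the way of the brightest probe, and none was called. With slide as a block they were 0.12, 0.31, 0.40 and 0.46, and that with 1,5-naphthalenediol was called (adjusted p = 0.213, 0.0116, 0.104 and 0.0769 in limma).

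**Figure D2:**
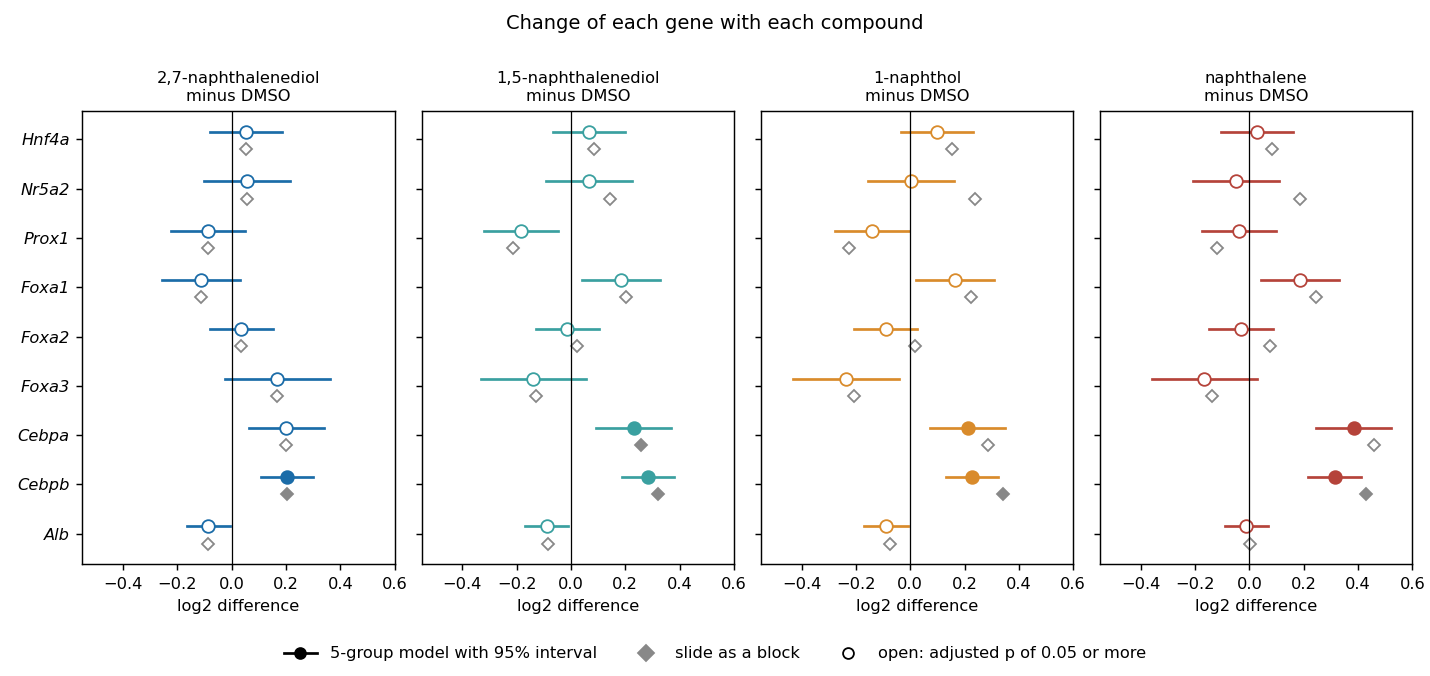
Log2 difference of each compound from DMSO (x axis) for the brightest probe of each gene (y axis). Circles with 95% intervals come from the model of 5 groups over 15 arrays, grey diamonds from the same model with slide as a block, and filled symbols have an adjusted p below 0.05. Cebpb is filled in all 4 panels in both fits, and Cebpa with slide as a block only for 1,5-naphthalenediol.

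Because Cebpa and Cebpb rose together, their promoters are shown beside that of Alb, which did not rise. Each runs from 250 bases before to 50 bases after the start of the gene, 5′ to 3′ on the gene's strand, as given by RefSeq for build GRCr8. Cebpb is at chr3:176816755-176817054 on the plus strand, Cebpa at chr1:96896334-96896633 on the plus strand and Alb at chr14:17906930-17907229 on the minus strand. The arrays carry the older build rn4 in their headers, and these coordinates belong to the sequences only. Capitals mark matches, on either strand, to TATAAA (the TATA box), CCAAT, TTGCNNAA (a C/EBP site), GTTAAT (a half-site of HNF1) and TGACG (a half-site of the cAMP response element). TNTTTAC (a FOXA site) and CAAAGTCCA (an HNF4 site) were searched too and had no match in these 3 windows.
Cebpb: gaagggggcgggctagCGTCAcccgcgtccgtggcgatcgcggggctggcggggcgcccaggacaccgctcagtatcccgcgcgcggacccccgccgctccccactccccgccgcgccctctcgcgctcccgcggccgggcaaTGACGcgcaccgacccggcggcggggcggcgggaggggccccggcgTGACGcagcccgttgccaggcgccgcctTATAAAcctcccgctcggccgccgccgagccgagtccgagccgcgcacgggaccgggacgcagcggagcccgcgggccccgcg
Cebpa: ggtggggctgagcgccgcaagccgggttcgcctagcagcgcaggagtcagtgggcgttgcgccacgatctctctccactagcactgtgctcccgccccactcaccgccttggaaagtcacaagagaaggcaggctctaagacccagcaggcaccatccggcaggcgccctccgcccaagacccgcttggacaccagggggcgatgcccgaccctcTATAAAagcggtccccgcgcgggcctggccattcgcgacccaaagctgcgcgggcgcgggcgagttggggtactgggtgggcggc
Alb: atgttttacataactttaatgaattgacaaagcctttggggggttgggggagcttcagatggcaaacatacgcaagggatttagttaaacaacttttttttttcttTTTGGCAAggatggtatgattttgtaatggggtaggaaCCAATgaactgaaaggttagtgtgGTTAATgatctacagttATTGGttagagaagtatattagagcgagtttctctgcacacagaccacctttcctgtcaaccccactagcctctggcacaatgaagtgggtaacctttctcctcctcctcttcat

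Both C/EBP promoters hold TATAAA, at -33 in Cebpb and at -35 in Cebpa counted from the start to the first letter. Among the others of the 9 genes, Foxa2 holds it at -207 (on the opposite strand) and at -205 and Foxa3 at -82, and neither was called against DMSO. TATAAA occurs in 14.2% of the 33469 rat promoter windows in the table. The Cebpb window also holds TGACG at 3 places, at -234 (on the opposite strand), -107 and -61, and 21.2% of all windows hold it at least once. The Alb window holds TTGCNNAA on the opposite strand at -144 and GTTAAT at -82, found in 10.6% and 7.45% of all windows. It also holds CCAAT at -106 and, on the opposite strand, at -65 (37.5%). Base composition differed: 81% of the bases were G or C in Cebpb, 68.7% in Cebpa and 40.7% in Alb. The table matched 7 of the 9 genes, and Foxa1 and Prox1 are not among them. A match of letters is a description of the window and shows no binding.

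No forkhead factor was called against DMSO, but Foxa1 and Foxa3 were called between compounds. Foxa1 read -3.34, -3.34 and -3.41 with 2,7-naphthalenediol and -3.20, -2.89 and -3.10 with 1,5-naphthalenediol. It read -3.11, -3.04 and -3.10 with 1-naphthol and -3.12, -3.06 and -3.01 with naphthalene, against -3.21, -3.28 and -3.25 with DMSO. The 2,7-naphthalenediol arrays lay below DMSO and the other exposed arrays above it. No compound overlapped with DMSO, as with 38.5%, 38.2%, 47% and 41.4% of all genes in these comparisons. The differences from DMSO were -0.11, 0.18, 0.16 and 0.18 in the same order of compounds (SE 0.07; adjusted p = 0.268, 0.0646, 0.0937 and 0.0581 in limma).

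Foxa3 ran the opposite way. It read -3.56, -3.36 and -3.51 with 2,7-naphthalenediol and -3.80, -3.75 and -3.80 with 1,5-naphthalenediol. It read -3.80, -3.89 and -3.97 with 1-naphthol and -3.73, -3.74 and -3.97 with naphthalene, against -3.82, -3.49 and -3.63 with DMSO. The DMSO arrays spread widely and overlapped with every compound. The differences from DMSO were 0.17, -0.14, -0.24 and -0.17, and none was called (adjusted p = 0.233, 0.295, 0.0785 and 0.187 in limma). With the array median as the scale Foxa3 was called lower with 1-naphthol (-0.28, 0.0409) and naphthalene (-0.25, 0.0468). With normexp background correction it was called lower with both as well (-0.24, 0.0152, and -0.19, 0.0326 in limma). Of 17 alternatives, 14 left Foxa3 uncalled with 1-naphthol and 15 with naphthalene. Foxa2 was not called in any comparison and had group means of 0.66 and 0.62 with 2,7- and 1,5-naphthalenediol, 0.54 with 1-naphthol and 0.60 with naphthalene, against 0.63 with DMSO. Its largest difference from DMSO was -0.09, with 1-naphthol, and was not called (0.244). The 3 arrays there (0.57, 0.53 and 0.52) lay below those of DMSO (0.59, 0.65 and 0.64). Groups did not overlap for 47% of all genes in that comparison. Blocked by slide, the Foxa2 differences were 0.02 with 1,5-naphthalenediol, 0.02 with 1-naphthol and 0.08 with naphthalene, on the other side of 0 and not called.

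Set against each other, the compounds split on Foxa1 and Foxa3. Of the 6 pairs, the 3 that hold 2,7-naphthalenediol called these genes and no other of the 9. Foxa1 was higher with 1,5-naphthalenediol than with 2,7-naphthalenediol, by 0.30 ± 0.07 (SE; adjusted p = 0.0105 in limma, 3 arrays per group), a fold of 1.23. It was lower with 2,7-naphthalenediol than with 1-naphthol (-0.28, 0.0177) and than with naphthalene (-0.30, 0.0138). Foxa3 was lower with 1,5-naphthalenediol than with 2,7-naphthalenediol, by -0.31 ± 0.09 (adjusted p = 0.0379 in limma). It was higher with 2,7-naphthalenediol than with 1-naphthol (0.40, 0.014, a fold of 1.32) and than with naphthalene (0.33, 0.027). These are 2 of 9 genes in each pair, where 14.8% of all genes were called between 1,5- and 2,7-naphthalenediol, 14.8% between 2,7-naphthalenediol and 1-naphthol, and 15.9% between 2,7-naphthalenediol and naphthalene.

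The difference between the diols is the one that lies mostly within a slide. In the fit with slide as a block it was 0.32 for Foxa1 and still called (adjusted p = 0.0209 in limma), and -0.30 for Foxa3 and not called (0.0938), where 11% of all genes were called. On slide 1 alone it was 0.32 for Foxa1 (0.074) and -0.30 for Foxa3 (0.128), with 2 arrays of 1,5-naphthalenediol and neither called. The 4 differences of 2,7-naphthalenediol from 1-naphthol and naphthalene kept their direction and about their size with the block: Foxa1 was at -0.34 against 1-naphthol and -0.36 against naphthalene, and Foxa3 at 0.38 and 0.31. None was called (adjusted p between 0.393 and 0.613), in a fit that called 0.081% and 0.0202% of all genes in these 2 comparisons. Leaving out any 1 of 6 arrays kept the call of Foxa1 between the diols and ended that of Foxa3. Against 1-naphthol, the Foxa1 call was lost without 2,7-naphthalenediol array 3 or 1-naphthol array 2, and the Foxa3 call without 2,7-naphthalenediol array 2 or 1-naphthol array 3. Against naphthalene, the Foxa1 call was lost without 2,7-naphthalenediol array 3, and the Foxa3 call without 2,7-naphthalenediol array 2 or 3 or naphthalene array 3 (adjusted p of these losses between 0.051 and 0.0885).

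The second Foxa1 probe did not show the split. It read -3.81, -3.87 and -3.76 with 2,7-naphthalenediol and -3.76, -3.67 and -3.80 with 1,5-naphthalenediol. It read -4.11, -4.06 and -4.20 with 1-naphthol and -3.95, -3.86 and -3.86 with naphthalene, against -3.98, -4.16 and -3.98 with DMSO. Both diols lay above DMSO, by 0.23 (adjusted p = 0.0358 in limma) with 2,7-naphthalenediol and 0.30 (0.00486) with 1,5-naphthalenediol. On this probe Foxa1 was higher with 2,7-naphthalenediol than with 1-naphthol, by 0.31 (0.0107), the reverse of the brightest probe. It was also higher with 1,5-naphthalenediol than with 1-naphthol, by 0.38 (0.00324), where the brightest probe differed by 0.02. In the fit with slide as a block both diols stayed called against DMSO (0.23, 0.0312, and 0.33, 0.00685). The block cannot move the first of these. The difference of 1-naphthol from DMSO, -0.08 without the block, was 0.0052, neither called. The differences from 1-naphthol were then 0.22 with 2,7-naphthalenediol and 0.32 with 1,5-naphthalenediol and were not called (0.591 and 0.0936). Without the block, against DMSO both probes were higher with 1,5-naphthalenediol and with naphthalene, and the single call was that of the second probe with 1,5-naphthalenediol. Both Foxa1 probes and that of Foxa3 are dim: the brightest Foxa1 probe lay between 186 and 257 intensity units, the second between 104.3 and 149.5, and Foxa3 between 110 and 184.

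**Figure D3:**
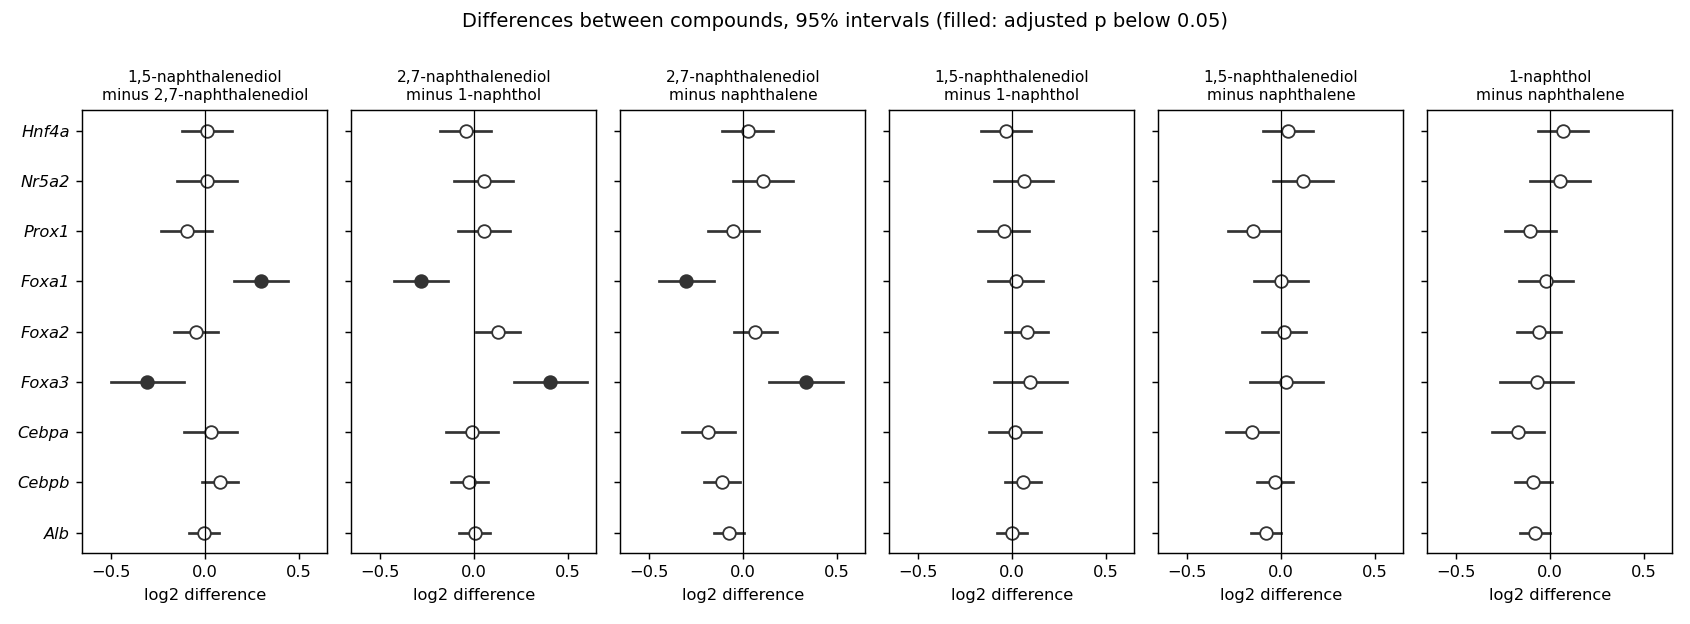
Log2 differences between compounds (x axis, one panel per pair) for the brightest probe of the 9 genes (y axis), with 95% intervals from the model over 15 arrays. Filled points have an adjusted p below 0.05. Filled points stand only in the 3 panels with 2,7-naphthalenediol, at Foxa1 and Foxa3.

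In the other 3 pairs 0 of the 9 genes were called by limma. The share of all genes was 9.23% between 1,5-naphthalenediol and 1-naphthol, 25% between 1,5-naphthalenediol and naphthalene, and 2.43% between 1-naphthol and naphthalene. At an unadjusted p below 0.05 the counts were 0, 2 and 1 of the 9. Blocked by slide, 0 of the 9 were called in these pairs as well, beside 1.92%, 8.48% and 3.06% of all genes. Cebpa was lower with 1,5-naphthalenediol than with naphthalene, by -0.15 (95% interval -0.29 to -0.01), and lower with 1-naphthol than with naphthalene, by -0.17 (-0.31 to -0.03), both without a call. Over all 5 groups at once, the F test in limma called 4 of the 9 genes: Cebpb (adjusted p = 0.00196), Cebpa (0.0073), Foxa1 (0.00936) and Foxa3 (0.0183). It called 44.8% of all genes.

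Hnf4a, the centre of the network, was not called in any comparison on its brightest probe. The probe read 2.43, 2.46 and 2.50 with 2,7-naphthalenediol and 2.42, 2.57 and 2.44 with 1,5-naphthalenediol. It read 2.48, 2.60 and 2.43 with 1-naphthol and 2.32, 2.51 and 2.48 with naphthalene, against 2.37, 2.41 and 2.44 with DMSO. The arrays of all 4 compounds overlapped with DMSO. The differences from DMSO were 0.05, 0.07, 0.10 and 0.03 (adjusted p between 0.274 and 0.758 in limma), and the 95% intervals of the 4 folds together ran from 0.930 to 1.17. The second Hnf4a probe differed from DMSO by -0.04 to 0.09, with no call, and its -0.04 with naphthalene was 0.08 with slide as a block. The third probe was higher with 1,5-naphthalenediol, at -2.90, -2.99 and -2.96 against -3.39, -3.14 and -3.38 with DMSO. That is a difference of 0.36 (adjusted p = 0.00512 in limma) on a probe between 172 and 265 intensity units, which the brighter probes of the gene did not show. The call held with slide as a block (0.36, 0.0131).

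**Figure D4:**
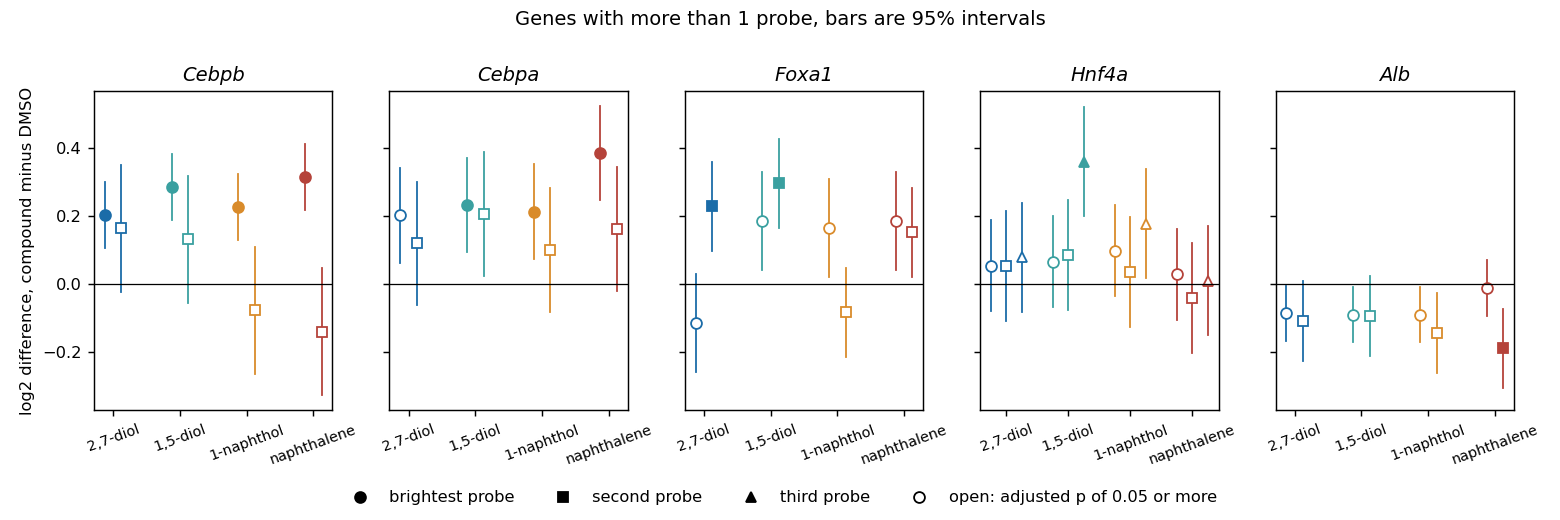
Log2 difference from DMSO (y axis) for every probe of the 5 genes with more than 1, by compound (x axis). Circles are the brightest probe, squares the second and triangles the third, bars are 95% intervals, and filled symbols have an adjusted p below 0.05. In this model without a slide block the Cebpb probes part with 1-naphthol and naphthalene, and the Foxa1 probes with 2,7-naphthalenediol and 1-naphthol.

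Nr5a2 and Prox1 were not called in any of the 10 comparisons in limma, with or without slide as a block. Nr5a2 had group means of -1.93 and -1.92 with 2,7- and 1,5-naphthalenediol, -1.98 with 1-naphthol and -2.04 with naphthalene, against -1.99 with DMSO, and all groups overlapped with DMSO. With slide as a block Nr5a2 was 0.24 above DMSO with 1-naphthol and 0.19 above it with naphthalene, where the fit without it gave 0.0036 and -0.05, and none of these was called (adjusted p = 0.248 and 0.358 with the block in limma). Prox1, on a probe printed 10 times, read 4.26, 4.20 and 4.21 with 2,7-naphthalenediol and 4.16, 4.03 and 4.18 with 1,5-naphthalenediol. It read 4.18, 4.16 and 4.18 with 1-naphthol and 4.33, 4.31 and 4.18 with naphthalene, against 4.18, 4.41 and 4.34 with DMSO. DMSO array 1 lay among the exposed arrays, apart from the other two. The largest difference of Prox1 from DMSO was -0.18 with 1,5-naphthalenediol (95% interval -0.32 to -0.05, adjusted p = 0.0537 in limma). Without DMSO array 1 Prox1 was called lower with 1,5-naphthalenediol (-0.25, 0.0137) and with 1-naphthol (-0.21, 0.0364). With the array median as the scale Prox1 was called lower with 1,5-naphthalenediol (-0.23, 0.0181) and 1-naphthol (-0.19, 0.0485). With 1,5-naphthalenediol it was also called with trend and robust moderation (0.0161) and with the filter on all 15 arrays (0.0468). In that comparison 14 of 18 alternatives left Prox1 uncalled.

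Alb, the product of the network, was not called with any compound on its brightest probe, which is printed 10 times on each array. It read 6.17, 6.26 and 6.22 with 2,7-naphthalenediol and 6.21, 6.23 and 6.20 with 1,5-naphthalenediol. It read 6.21, 6.17 and 6.26 with 1-naphthol and 6.31, 6.25 and 6.32 with naphthalene, against 6.32, 6.28 and 6.31 with DMSO. Groups did not overlap for 38.5%, 38.2% and 47% of all genes with 2,7-naphthalenediol, 1,5-naphthalenediol and 1-naphthol against DMSO. The Alb arrays of these compounds lay below all DMSO arrays, and those of naphthalene overlapped with DMSO. The differences were -0.09, -0.09, -0.09 and -0.01 (SE 0.04; adjusted p = 0.146, 0.103, 0.102 and 0.849 in limma), none of them called. The lowest bound of the 4 fold intervals was 0.889. Where the array median replaced the 75th percentile as the scale, Alb was called lower with 2,7-naphthalenediol (-0.13, 0.0378), 1,5-naphthalenediol (-0.14, 0.0222) and 1-naphthol (-0.14, 0.0261). With trend and robust moderation Alb was called lower with 1,5-naphthalenediol (-0.09, 0.0473) and 1-naphthol (-0.09, 0.0488). With these compounds 18 of 20 and 17 of 19 alternatives left Alb uncalled. With quantile scaling the difference with 2,7-naphthalenediol was 0.0071 and that with naphthalene 0.045, on the other side of 0. On the second Alb probe the difference was -0.19 with naphthalene and called (0.0261), and it was -0.11, -0.09 and -0.14 with the others. Blocked by slide, the naphthalene difference was -0.04 on the second probe (0.829) and 0.0034 on the brightest, and the 1-naphthol difference on the second probe was 0.0050, none of them called.

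The summed level of the 10 hepatocyte markers, Alb among them, is the sum of each gene's intensity over the array's 75th percentile. It lay between 472 and 491 with 2,7-naphthalenediol, 467 and 490 with 1,5-naphthalenediol, 469 and 487 with 1-naphthol, and 473 and 499.7 with naphthalene, against 499.5 and 511 with DMSO. It was lower with the first 3 compounds than on any DMSO array. Such a sum follows the most abundant genes, and gene by gene the list did not fall together. With 2,7-naphthalenediol 0 of the 10 rose and 0 fell in limma, with 1,5-naphthalenediol 3 rose and 1 fell, with 1-naphthol 1 rose and 0 fell, and with naphthalene 0 rose and 3 fell. Of all genes 11.1%, 22.2%, 20.9% and 25.2% were called. The median log2 difference of the 10 was -0.07, 0.04, -0.08 and -0.10. With slide as a block 0 rose and 1 fell with 2,7-naphthalenediol, and 4 rose and 0 fell with 1,5-naphthalenediol. In that fit 0 of the 10 were called with 1-naphthol or naphthalene, where 1.17% and 0.946% of all genes were. In these bulk samples, fewer cells of a type and less RNA per cell cannot be told apart. The summed level of 2 of 7 bile duct markers, Sox9 and Epcam, ran from 0.465 to 0.508 with 2,7-naphthalenediol, 0.514 to 0.523 with 1,5-naphthalenediol, 0.456 to 0.549 with 1-naphthol and 0.612 to 0.645 with naphthalene, against 0.596 to 0.649 with DMSO. It lay below DMSO with both diols and 1-naphthol and within the DMSO range with naphthalene. This sum mostly follows Epcam, the brighter of the 2 (DMSO mean -0.85, against -3.83 for Sox9). Gene by gene, 0 rose and 1 fell in limma with each diol. With 1-naphthol 1 rose and 1 fell, and with naphthalene 1 rose and 0 fell, beside 20.9% and 25.2% of all genes called. With slide as a block 0 of the 2 were called with 1-naphthol or naphthalene. The sum of 3 of 10 macrophage markers, Cd68, Cd14 and C1qb, ran from 1.43 to 1.59 with 2,7-naphthalenediol, 1.66 to 1.74 with 1,5-naphthalenediol, 1.54 to 1.61 with 1-naphthol and 1.43 to 1.57 with naphthalene, against 1.33 to 1.47 with DMSO. It lay above DMSO with 1,5-naphthalenediol and 1-naphthol and overlapped with it for naphthalene and 2,7-naphthalenediol. Gene by gene, 1 of the 3 rose in limma with 1,5-naphthalenediol, beside 22.2% of all genes called. With each other compound 0 of the 3 rose, and 0 fell with any. The sum of 4 of 10 stellate markers ran from 0.221 to 0.312 with 2,7-naphthalenediol, 0.230 to 0.250 with 1,5-naphthalenediol, 0.243 to 0.263 with 1-naphthol and 0.285 to 0.317 with naphthalene, against 0.219 to 0.309 with DMSO, which overlapped with all 4. The sum of 3 of 10 endothelial markers lay between 1.68 and 2.17 with the compounds, against 1.87 to 2.08 with DMSO, and each compound overlapped with DMSO. That of 2 of 10 lymphocyte markers ran from 0.0511 to 0.0556 with 2,7-naphthalenediol, against 0.0559 to 0.0713 with DMSO, and overlapped with DMSO for the other compounds. These sums were not adjusted for slide. The part of these levels in the results was not tested.

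Around the 9 genes stands a wider set of liver regulators, 36 by name, of which 31 were tested. With 2,7-naphthalenediol 7 of the 31 rose and 0 fell in limma, and with 1,5-naphthalenediol 10 rose and 1 fell. With 1-naphthol 9 rose and 1 fell, and with naphthalene 11 rose and 1 fell. The median log2 difference of the 31 was 0.11, 0.12, 0.17 and 0.22, beside -0.02, -0.01, -0.0039 and -0.0025 over all genes. The calls covered 7 of 31, 11 of 31, 10 of 31 and 12 of 31, beside the 11.1%, 22.2%, 20.9% and 25.2% of all genes given above. Leaving out 1 array moved the number that rose with 2,7-naphthalenediol most: it was 1 without 2,7-naphthalenediol array 2, 2 without DMSO array 3, 3 without DMSO array 1 and 4 without 2,7-naphthalenediol array 3. With 1,5-naphthalenediol it was 6 without DMSO array 2 or 3, and without DMSO array 3 it was 5 with 1-naphthol and 7 with naphthalene. When slide was a block, 9 and 11 rose with 2,7- and 1,5-naphthalenediol, and 1 rose with each of 1-naphthol and naphthalene, where 1.17% and 0.946% of all genes were called. The median differences with 1-naphthol and naphthalene were then 0.21 and 0.27.

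Ppara, the fatty acid receptor that drives fat oxidation, was the gene that rose with each of the 4 in both fits. It rose by 0.30 ± 0.08 with 2,7-naphthalenediol (SE; adjusted p = 0.0284 in limma), a call that 5 of 6 single arrays ended when left out. It rose by 0.73 with 1,5-naphthalenediol (6.45e-05), 0.63 with 1-naphthol (0.000767) and 0.40 with naphthalene (0.00477). With the slide as a block, these last 3 were 0.81, 0.86 and 0.63 (5.31e-05, 0.00938 and 0.0422). The Ppara difference with 2,7-naphthalenediol lies within slide 1 and cannot move with the block. Klf15, a glucocorticoid-responsive regulator of gluconeogenesis, rose by 0.57 with 1,5-naphthalenediol (adjusted p = 0.0012 in limma). Nr1i3, the drug-sensing receptor CAR, rose by 0.44 with 1,5-naphthalenediol (0.00575), by 0.41 with 1-naphthol (0.012) and by 0.34 with naphthalene (0.0223). Its probe is dim, with a DMSO mean of -4.31. With slide as a block the Nr1i3 differences were 0.45, 0.44 and 0.37, and only the first was called (0.014, 0.206 and 0.274). Its 1-naphthol call was lost without DMSO array 3, and its naphthalene call without DMSO array 2 or 3 or naphthalene array 1. Nr2f2, an orphan receptor that competes with Hnf4a for sites, rose by 0.32 with 2,7-naphthalenediol (0.00467). Cebpd, another C/EBP member and an acute phase gene, fell by 0.32 with 1,5-naphthalenediol (0.0156) and by 0.35 with 1-naphthol (0.0135), unlike Cebpa and Cebpb. Its calls were lost without DMSO array 1 or 1,5-naphthalenediol array 2, and without 1-naphthol array 3. Blocked by slide, Cebpd fell by 0.28 with 1,5-naphthalenediol and was called (0.0481), and it was at -0.23 with 1-naphthol without a call (0.447). Cebpg, the other C/EBP gene on the list and named here after its values were seen, was lower with naphthalene, by -0.13 (0.0283), a call lost with slide as a block.

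The targets of the network were called both ways. Of 40 plasma protein and hepatocyte enzyme genes 39 were tested, and 1 rose and 3 fell in limma with 2,7-naphthalenediol, 5 rose and 8 fell with 1,5-naphthalenediol, 2 rose and 1 fell with 1-naphthol, and 1 rose and 6 fell with naphthalene. Their median log2 difference was -0.07 with 2,7-naphthalenediol, -0.06 with 1,5-naphthalenediol, -0.05 with 1-naphthol and -0.04 with naphthalene, beside -0.02, -0.01, -0.0039 and -0.0025 over all genes. The calls cover 4, 13, 3 and 7 of the 39, beside 11.1%, 22.2%, 20.9% and 25.2% of all genes. Without any 1 of the 6 arrays at most 1 of the 39 rose and 1 fell with 2,7-naphthalenediol. With 1,5-naphthalenediol the number that rose was 2 without DMSO array 3 and 3 without 1,5-naphthalenediol array 1 or 2. With 1-naphthol 1 rose without any 1 of the 6 arrays, and 2 fell without 1-naphthol array 1. With naphthalene 3 fell without DMSO array 1 or naphthalene array 1 and 10 without naphthalene array 3, and 0 rose without DMSO array 3 or naphthalene array 1 or 2. Gys2, the liver glycogen synthase, fell by 0.58 ± 0.05 with 1,5-naphthalenediol (SE; adjusted p = 2.24e-05 in limma), by 0.24 with 1-naphthol (0.00959), by 0.20 with naphthalene (0.0189) and by 0.19 with 2,7-naphthalenediol (0.0355). Tdo2, which opens tryptophan breakdown, rose by 0.44 with 1,5-naphthalenediol (0.000378), by 0.20 with 2,7-naphthalenediol (0.0497) and by 0.20 with 1-naphthol (0.0345). Tat, the tyrosine aminotransferase, rose by 0.38 with 1,5-naphthalenediol (0.00743) and fell by 0.41 with naphthalene (0.00615). With slide as a block the calls with 1,5-naphthalenediol held for all 3 genes. Those of Gys2 and Tdo2 with 2,7-naphthalenediol, whose differences the block cannot move, stayed called (0.0351 and 0.048). Those with 1-naphthol and naphthalene were lost. In that fit 0 of the 39 were called with either, where 1.17% and 0.946% of all genes were. Gys2 then stood at -0.23 with 1-naphthol and -0.19 with naphthalene, close to its values without the block, and Tat with naphthalene at -0.21. The median of the 39 was then 0.01 with 1-naphthol and 0.0062 with naphthalene. The Gys2 call with 2,7-naphthalenediol was lost without any 1 of its 6 arrays, and that with naphthalene without DMSO array 1 or naphthalene array 1. The Tdo2 call with 1-naphthol was lost without any 1 of its 6 arrays. That with 2,7-naphthalenediol was lost without DMSO array 1, 2 or 3 or 2,7-naphthalenediol array 2 or 3.

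Of 20 genes that mark fetal liver or loss of hepatocyte identity 12 were tested, and 0 rose and 1 fell in limma with 2,7-naphthalenediol, 0 rose and 4 fell with 1,5-naphthalenediol, 2 rose and 4 fell with 1-naphthol, and 2 rose and 2 fell with naphthalene. These are 1, 4, 6 and 4 of the 12, beside 11.1%, 22.2%, 20.9% and 25.2% of all genes, and their median difference was -0.05, -0.17, -0.24 and -0.04. With 1,5-naphthalenediol 2 fell without DMSO array 3 or 1,5-naphthalenediol array 2. With 1-naphthol 0 or 1 rose without any 1 of its 6 arrays. With naphthalene 0 or 1 rose and 0 or 1 fell without any 1 of the arrays other than naphthalene array 3. Epcam, an adhesion molecule of bile duct and progenitor cells, fell by 0.44 ± 0.07 with 2,7-naphthalenediol (SE; adjusted p = 0.00514 in limma), by 0.32 with 1,5-naphthalenediol (0.00827) and by 0.50 with 1-naphthol (0.0018). Vim, the mesenchymal filament vimentin, fell by 0.72 with 1,5-naphthalenediol (0.000147), by 0.45 with 1-naphthol (0.00514) and by 0.29 with naphthalene (0.0297). Igf2, a fetal growth factor, rose by 0.61 with 1-naphthol (0.0281) and by 0.66 with naphthalene (0.0187). Its probe is very dim, with group means of -5.96 and -5.92 against -6.58 with DMSO. Sox9, also among the bile duct markers, rose by 0.36 with naphthalene (0.0353). Blocked by slide, Epcam and Vim kept their calls with the diols where they had them, though the Epcam difference with 2,7-naphthalenediol cannot move. In that fit 0 of the 12 were called with 1-naphthol or naphthalene, where 1.17% and 0.946% of all genes were. Several differences were then about as large: Epcam was at -0.45 and Vim at -0.38 with 1-naphthol, and Igf2 at 0.75 with 1-naphthol and 0.80 with naphthalene. With naphthalene Vim was at -0.21 and Sox9 at 0.0036 in that fit. The Igf2 call with 1-naphthol was lost without any 1 of its 6 arrays, and that with naphthalene without DMSO array 3. The Vim call with naphthalene was lost without any 1 of its 6 arrays. That of Sox9 was lost without DMSO array 1, 2 or 3 or naphthalene array 1 or 2.

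Among 10321 tested genes that lie outside these 9 and carry a symbol other than a provisional LOC, RGD or AABR one, the profile most like that of Cebpb over the 15 arrays was that of Hapln2 (Pearson's r = 0.934), then Zmynd8 (0.934) and Zbtb16 (0.909). For Cebpa it was Smarcd2 (0.910), then Mknk2 (0.905) and Hapln2 (0.885). For Alb it was Hamp (0.937), the iron hormone hepcidin, then the ribosomal protein gene Rplp0 (0.935) and Ttr (0.926), the plasma carrier transthyretin. Prox1 ran most closely with Acbd4 (0.978), Iba57 (0.964) and Pnma3 (0.963). Foxa1 ran with Apoc4 (0.933), Mrpl34 (0.906) and Svip (0.878), and Foxa3 with the glucose transporter gene Slc2a1 (0.902), Zc3h7b (0.882) and Epha2 (0.869). Hnf4a, Foxa2 and Nr5a2, which had the smallest F statistics over the 5 groups, had their closest profiles in Kiaa1191 (0.805), Eif4h (0.833) and Rab14 (0.825). The 15 points share 5 groups and 2 slides, and each gene named is the highest of 10321.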

How the data were processed

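Expression in primary rat hepatocytes was measured on 15 one-colour Agilent arrays. The deposited values are 1 intensity per spot, and per the file headers these intensities come from Feature Extraction 10.7.1.1, with background subtracted and no scaling between arrays. Per the labels' protocols, 100 ng of total RNA was labelled with Cy3. Control spots and outlier spots (250 to 354 per array) were left out, log2 was taken, the array's 75th percentile was subtracted, and spots of a probe were averaged. Of 45598 probes, 21229 matched 1 symbol through their accession in the RefSeq gene table of the assembly GRCr8. Probes were kept where every array of some group (3 of 3) read well above background (23520, less 7 with a missing value), and the brightest stood for a gene, leaving 19763 genes. Nothing more is known here of how the deposited values were made.

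limma 3.58.1 (R 4.3.3, version 1.17.8 of data.table) fitted the 5 group means over 15 arrays, with eBayes and Benjamini-Hochberg adjustment over all genes within each of 10 comparisons, and an F test. The 95% intervals are those of single comparisons. The fit was tested on simulated data. The labels call the replicates independent experiments and do not say whether the cells came from separate animals, so p-values measure the spread between these samples. Arrays with the same replicate number did not deviate together: 2 of 30 such pairs correlated above 0.1, and the closest array carried the same number for 5 of 15. Precision is limited by 3 arrays per group.

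The 9 genes, the lists of other genes and the tests were chosen with earlier results of these data known. All 9 genes are named, with at most 3 closest profiles per gene. From each list only genes among the 4 largest called changes of a comparison are named, apart from Cebpg, named after its values were seen. Alternatives were background correction (normexp, offset 50, on spot medians, since the spot means it was planned for are not in the columns used here), quantile and median scaling, filters, probe choice, slide, replicate block, group choice, variance moderation, adjustment, and leaving out each array. Probe sequences are not used here.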

Additional observations from a re-analysis of the deposited data

How the results depend on the processing

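The number of the 9 genes called moved with several choices, in both directions. Where it was 1 with 2,7-naphthalenediol against DMSO, it was 2 with quantile scaling, with a replicate block, with trend and robust moderation and with adjustment over all genes and comparisons, and 0 without a filter on dim probes, with the mean of a gene's probes and with only the groups compared. With 1,5-naphthalenediol it was 1 without a filter, on slide 1 alone and with only the groups compared, against 2, 3 on the array median and with the filter on all 15 arrays, and 4 with the mean of probes and with trend and robust moderation. With 1-naphthol it was 4 on the array median, 1 without a filter, 0 with the mean of probes and 1 with slide as a block, and 3 with trend and robust moderation. With naphthalene it was 1 with slide as a block and 3 with normexp and on the array median. Between the diols the 2 calls became 1 with normexp, without a filter, with slide as a block and with only the groups compared, and 0 on slide 1 alone. Between 2,7-naphthalenediol and 1-naphthol they became 1 with normexp, without a filter and with the mean of probes, and between 2,7-naphthalenediol and naphthalene 0 without a filter and 1 with the mean of probes or only the groups compared. Both became 0 with slide as a block, where 0.081% and 0.0202% of all genes were called, and the second became 3 with the replicate block and with trend and robust moderation. The 0 between 1,5-naphthalenediol and 1-naphthol became 1 with the mean of probes, and that between 1,5-naphthalenediol and naphthalene 1 with the mean of probes, 1 with the replicate block and 2 with trend and robust moderation. The F test called 2 with slide as a block, 3 without a filter and 6 with trend and robust moderation. The causes were not tested.

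Leaving out 1 array at a time, the counts ran from 0 to 2 with 2,7-naphthalenediol, 1 to 3 with 1,5-naphthalenediol, 1 to 4 with 1-naphthol and 2 with naphthalene against DMSO. The count was 1 between the diols each time, and ran from 1 to 2 between 2,7-naphthalenediol and 1-naphthol, 0 to 2 between 2,7-naphthalenediol and naphthalene, and 0 to 1 between 1,5-naphthalenediol and naphthalene.

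Of the differences called in either setting, those that turned sign did so with the choice of probe. On its second probe Cebpb was at -0.077 with 1-naphthol and -0.14 with naphthalene against DMSO (0.27 and 0.20 with slide as a block as well), and it was higher with 1,5-naphthalenediol (0.27) and 2,7-naphthalenediol (0.30) than with naphthalene. On its second probe Foxa1 with 2,7-naphthalenediol was at 0.23 against DMSO, 0.31 against 1-naphthol (0.22 with slide as a block as well, chosen after seeing the data) and 0.076 against naphthalene. The mean of both Foxa1 probes gave 0.016 between 2,7-naphthalenediol and 1-naphthol. The replicate block changed no other call than that of Cebpa, which it called with 2,7-naphthalenediol against DMSO (0.20, adjusted p = 0.0271 in limma) and between naphthalene and both diols. Dim signal limits Foxa1, Foxa3 and the further probes of Hnf4a, Cebpa and Cebpb, and also Igf2, Nr1i3 and Sox9 of the lists.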
